A study of Homo sapiens with 26 samples.

Results

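The genes described are 9 matrix proteases, protease inhibitors and plasminogen activation genes of LoVo cells: MMP7, MMP1, MMP14, MMP15, TIMP1, TIMP2, PLAU, PLAUR and PLAT. They were chosen by name, with earlier results of these data known. They are the rows of both deposited expression tables that carry one of these symbols. All 9 were found in each table, among 18165 genes in the first and 17734 in the second, and all 9 passed the filter on low values in both.

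LoVo is an established human colorectal cancer line. RNA was measured in wild-type cells and in 2 lines derived from them by lentiviral transfer of PIK3CA with the mutation E545K or H1047R. PIK3CA codes for the catalytic part of a lipid kinase, PI3K alpha. The first table has 18 libraries in 9 groups of 2. Cells of each of the 3 genotypes were kept in DMSO, the solvent control, in 0.5 µM palbociclib, which blocks CDK4 and CDK6 and was given to induce senescence, or in medium conditioned by senescent cells. The second table has 8 libraries in 4 groups of 2, namely E545K and H1047R cells in 0.5 µM palbociclib without or with 4 µM erlotinib, an inhibitor of the EGF receptor. All groups share DMEM with 10% fetal bovine serum. The labels give 72 hours for palbociclib and DMSO, 48 hours for palbociclib with erlotinib, and 48 hours for cells they call control, without naming libraries. If the DMSO libraries were these control cells, palbociclib and a difference in exposure time could not be told apart. How long cells stayed in conditioned medium, which cells made it, and how long palbociclib was given alone in the second table are not given in the sources used here. Conditioned medium was set against DMSO alone, so the medium and a difference in exposure time cannot be told apart. For the palbociclib experiment each mutation is 1 line, so a mutation and its line cannot be told apart, and the clones of the other libraries are not given in the sources used here.

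Matrix metalloproteinases are zinc enzymes that cut proteins of the extracellular matrix and the cell surface, and most are made as inactive proenzymes. MMP7 (matrilysin) is secreted by epithelial cells and MMP1 is a secreted collagenase, while MMP14 and MMP15 are anchored in the plasma membrane. TIMP1 and TIMP2 are secreted inhibitors of these enzymes, and TIMP2 also takes part with MMP14 in the activation of proMMP2. PLAU (urokinase) and PLAT (tissue-type plasminogen activator) convert plasminogen to plasmin, and PLAUR is the receptor that holds urokinase on the cell surface. Several of these genes belong to the secretory program described in senescent cells. The data are RNA levels, and neither secreted protein nor enzyme activity was measured.

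Levels are in FPKM, fragment numbers scaled by transcript length and by library size, so that genes can be compared per length. Read depth is unknown. From 11453 to 12157 genes reached 1 FPKM in a library. The epithelial markers EPCAM (181.91 to 416.55 FPKM), CDH1, KRT8, KRT18 and CDX2 were present in all 26 libraries, whereas the differentiation markers KRT20 (0.03 to 1.20) and VIL1 (0.20 to 3.76) were low. Fibroblast markers summed to 1.01 to 20.75 FPKM, with COL3A1 at 0.26 to 19.64 and DCN and LUM at most 0.06. Endothelial markers summed to 0.10 to 0.52 FPKM, and leukocyte markers to 25.19 to 69.85, of which CD68 made 24.14 to 68.93 and PTPRC 0.30 to 1.55. The leukocyte marker CD3E is listed in 0 libraries and the fibroblast marker COL1A2 only in the 8 of the second table. Where a marker is not listed, the sums leave it out. The part of these markers in the results was not tested. In bulk RNA, fewer cells that express a gene and less RNA per cell cannot be told apart.

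TIMP1 was the most abundant of the 9 genes in all libraries except the 2 of H1047R cells with palbociclib and erlotinib, and ranged from 61.14 to 129.57 FPKM. PLAUR, which exceeded it in those libraries, ranged from 10.90 to 87.76 FPKM (median 33.3). MMP15 ranged from 10.72 to 33.03, TIMP2 from 6.16 to 27.76 and MMP14 from 7.27 to 11.66 FPKM. PLAU and PLAT were lower, at 2.64 to 11.17 and 1.05 to 6.34 FPKM. The secreted metalloproteinases were at or near the bottom in DMSO and had the widest ranges, with MMP7 at 0.21 to 25.20 FPKM and MMP1 at 0 to 5.87. The highest MMP7 value was 120.0-fold the lowest, against 1.60-fold for MMP14.

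**Figure D1:**
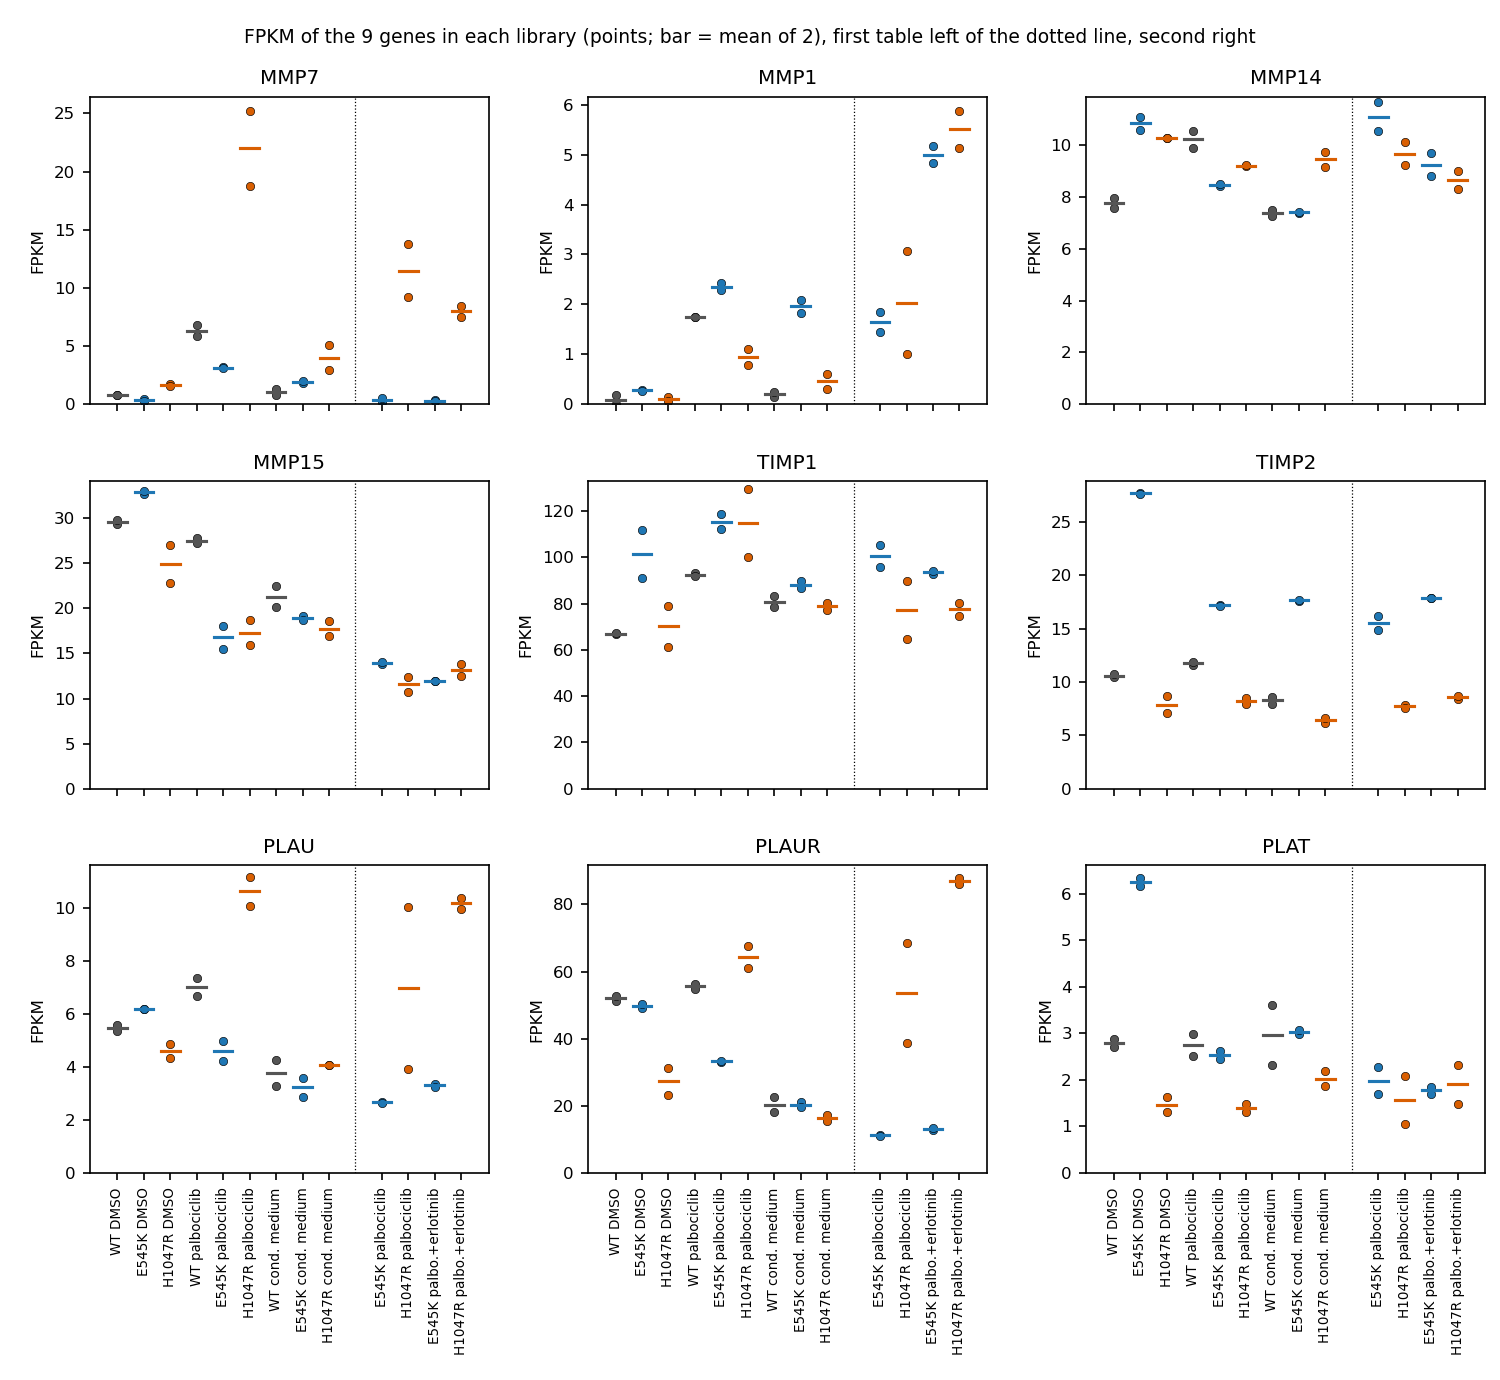
FPKM (linear vertical axes from 0) of each of the 9 genes in the 26 libraries by group; points are libraries, bars are means of 2, grey is wild type, blue E545K and orange H1047R, and the second table stands right of the dotted line. MMP7 reaches 18.78 and 25.20 FPKM in H1047R cells with palbociclib, while MMP14 lies between 7.27 and 11.66 throughout.

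All tests used limma on log2(FPKM + 1), and p-values were adjusted over all tested genes by the Benjamini-Hochberg method. A gene was called when its adjusted p was below 0.05. The relative log2 change is the change minus the median change of all tested genes, while the test is of the change from 0. In DMSO that median was 0.25 when E545K, and 0.26 when H1047R, was set against wild type. It was 0.14 for palbociclib and 0.29 for conditioned medium in wild-type cells, and -0.17, -0.23 and -0.27 for the differences of response against wild type of H1047R to palbociclib, E545K to conditioned medium and H1047R to conditioned medium. In the other comparisons it lay within 0.1 of 0. The +1 makes the log2 change of a low gene such as MMP1 smaller than its FPKM ratio. Separate cultures are not stated for the 2 libraries of a group, so p-values measure the spread between these libraries, which may be technical.

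Palbociclib raised both secreted metalloproteinase genes in all 3 genotypes. In wild-type cells 5 of the 9 genes were called higher and 0 lower (34.0% of all genes were called, 27.2% higher and 6.77% lower). In E545K cells 2 were higher and 6 lower (52.2% of all genes, 32.9% higher and 19.3% lower), and in H1047R cells 5 were higher and 1 lower (39.3%, 19.5% higher and 19.8% lower). Set against those shares, the 9 genes had more higher calls in wild type and H1047R and more lower calls in E545K than all genes. The 9 genes were chosen with earlier results of these data known, so the counts describe these genes and test nothing about the set. MMP7 and MMP1 were called higher in each genotype. The wild-type count fell to 3 after quantile normalization and 2 after median-centring, and MMP7 and MMP1 were among those called under both.

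MMP7 stood at 0.76 and 0.80 FPKM in wild-type, 0.47 and 0.31 in E545K and 1.74 and 1.58 in H1047R cells in DMSO. With palbociclib it stood at 6.80 and 5.82 FPKM in wild-type, 3.18 and 3.12 in E545K and 18.78 and 25.20 in H1047R cells. Every treated library lay above every DMSO library of all 3 genotypes. The mean was 8.09-fold higher in wild type (relative log2 change 1.90, SE 0.18, adjusted p 2.91e-06). It was 8.08-fold higher in E545K (1.50, SE 0.18, adjusted p 5.41e-06) and 13.2-fold higher in H1047R (3.13, SE 0.18, adjusted p 1.92e-08). The H1047R response exceeded the wild-type response by 1.23 (SE 0.26, adjusted p 0.0114), a call that was lost with a pseudocount of 0.1 (adjusted p 0.132) and on the TPM scale (0.0504). For E545K against wild type the difference of response was -0.41 (SE 0.26, adjusted p 0.216) and was not called.

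The 250 bases before the MMP7 start are printed because MMP7 had the largest rise in relative log2 change. The gene lies on chromosome 11 (102520508 to 102530747, minus strand), and the stretch is chr11:102530748-102530997 in GRCh38.p14 from RefSeq, written 5′ to 3′ on the strand of the gene.
MMP7 promoter: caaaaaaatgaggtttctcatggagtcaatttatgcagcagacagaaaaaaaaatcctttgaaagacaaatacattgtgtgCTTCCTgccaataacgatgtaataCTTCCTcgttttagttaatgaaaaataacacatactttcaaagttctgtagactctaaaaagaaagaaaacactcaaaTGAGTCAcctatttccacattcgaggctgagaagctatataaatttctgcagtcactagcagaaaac
Capitals mark 1 match to the AP-1 motif TGANTCA, 67 to 61 bases before the start, and 2 matches to the ETS motif AGGAAG read from the other strand, 169 to 164 and 145 to 140 bases before it. Both strands were searched for these motifs, the TCF motif CTTTGNT and an NF-kB motif, and no matches overlapped. The TCF form used requires a T as its last base. The stretch also holds ctttgaa and, read from the other strand, the same letters at ttcaaag. Both miss that form by the last base alone, so they are not marked. Of 34788 RefSeq stretches of the same length, 6.59% held the AP-1, 28.7% the ETS, 13.2% the TCF and 1.73% the NF-kB motif. A match describes letters, and binding was not measured.

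In conditioned medium MMP7 stood at 1.33 and 0.78 FPKM in wild-type, 1.84 and 2.03 in E545K and 5.05 and 2.93 in H1047R cells. The wild-type libraries overlapped those in DMSO, and both mutant lines lay above theirs. In both mutant lines MMP7 rose, by a relative log2 change of 1.03 in E545K cells (SE 0.18, adjusted p 0.000137). In H1047R cells the change was 0.87 (SE 0.18, adjusted p 0.00571). In wild type it was -0.10 (adjusted p 0.35). The E545K response exceeded the wild-type response by 1.11 (SE 0.26, adjusted p 0.0108) and the H1047R response by 0.95 (SE 0.26, adjusted p 0.0378). These calls rest on few libraries. Without wild-type conditioned medium replicate 2 the adjusted p of the 2 differences became 0.0598 and 0.165, and without H1047R conditioned medium replicate 1 the H1047R change was no longer called (0.0854). The H1047R difference lost its call in 10 of 15 alternatives.

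MMP1 lies on chromosome 11 (102789919 to 102798160), as MMP7 does. In DMSO it was listed at 0 and 0.18 FPKM in wild-type, 0.29 and 0.26 in E545K and 0.15 and 0.07 in H1047R cells. With palbociclib it stood at 1.74 and 1.74 FPKM in wild-type, 2.42 and 2.29 in E545K and 0.79 and 1.10 in H1047R cells, with no overlap with any DMSO library. The relative log2 change was 1.20 in wild type (SE 0.12, adjusted p 3.77e-06), 1.31 in E545K (SE 0.12, adjusted p 4.63e-07) and 0.83 in the H1047R line (SE 0.12, adjusted p 0.000184). The mean rose 8.56-fold in E545K and 8.59-fold in H1047R, and no fold is given for wild type because 1 of its DMSO libraries is listed at 0. The H1047R response was smaller than the wild-type response by a difference of -0.36 (adjusted p 0.0424), which lost its call in 11 of 15 alternatives.

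Conditioned medium raised MMP1 in E545K cells, to 1.83 and 2.09 FPKM (1.17, SE 0.12, adjusted p 1.14e-06). Wild-type cells in that medium had 0.15 and 0.25 FPKM, which overlapped DMSO (-0.15, adjusted p 0.313). The E545K response exceeded the wild-type response by 1.30 (SE 0.17, adjusted p 0.000178). H1047R cells had 0.60 and 0.31 FPKM of MMP1 (0.38, SE 0.12, adjusted p 0.0494), a call that was lost in 7 of 11 alternatives, among them without either DMSO library (0.075 and 0.193) and without conditioned medium replicate 1 (0.365).

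Of the membrane-anchored proteases, MMP15 fell with palbociclib in both mutant lines, and MMP14 rose in wild type and fell in E545K. MMP15 (chromosome 16, 58025754 to 58046901) stood at 29.33 and 29.82 FPKM in wild-type, 32.74 and 33.03 in E545K and 27.04 and 22.81 in H1047R cells in DMSO. With palbociclib it stood at 27.21 and 27.77 FPKM in wild-type, 15.47 and 18.10 in E545K and 15.92 and 18.68 in H1047R cells. It fell in E545K (-1.02, SE 0.10, adjusted p 2.42e-06) and also in H1047R (-0.47, SE 0.10, adjusted p 0.00123), although the H1047R change was not called when the fit held only the groups compared (0.118). In wild type the relative log2 change was -0.24 (adjusted p 0.455). The difference of response against wild type was -0.79 for the E545K line (SE 0.14, adjusted p 0.000665) and -0.23 in H1047R (adjusted p 0.0509). The H1047R difference was called with a replicate block (adjusted p 0.0475) and in 5 of 15 alternatives in all (lowest 0.0109). In DMSO, H1047R cells had less MMP15 than wild type (-0.50, SE 0.10, adjusted p 0.0398), a call lost in 6 of 11 alternatives.

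Conditioned medium lowered MMP15 in all 3 genotypes. It stood at 20.17 and 22.48 FPKM in wild-type, 19.17 and 18.77 in E545K and 16.92 and 18.59 in H1047R cells, below the DMSO libraries of each. The relative log2 change was -0.75 in wild type (SE 0.10, adjusted p 0.000759), -0.81 in E545K (SE 0.10, adjusted p 1.16e-05) and -0.47 in the H1047R line (SE 0.10, adjusted p 0.00647). The H1047R call was lost without DMSO replicate 1 (0.0561) and without conditioned medium replicate 1 (0.0754).

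MMP14 (chromosome 14, 22836585 to 22847758) varied least of the 9 genes in the first table. It stood at 7.96 and 7.59 FPKM in wild-type, 10.59 and 11.11 in E545K and 10.29 and 10.28 in H1047R cells in DMSO. Palbociclib moved it in opposite directions, to 9.91 and 10.55 FPKM in wild type (0.22, SE 0.07, adjusted p 0.00157) and 8.41 and 8.51 in E545K (-0.41, SE 0.07, adjusted p 0.00141). The wild-type rise was not called after quantile normalization (0.115) or median-centring (0.0812). The E545K response was lower than the wild-type response by a difference of -0.64 (SE 0.10, adjusted p 0.00027). For H1047R the difference was -0.33 (SE 0.10, adjusted p 0.00483), a call lost after quantile normalization (0.0914) and median-centring (0.0708) and with only the groups compared (0.0715). In H1047R cells MMP14 was at 9.18 and 9.25 FPKM with palbociclib (-0.12, adjusted p 0.119). Conditioned medium lowered it in E545K, to 7.38 and 7.43 FPKM (-0.54, SE 0.07, adjusted p 3.16e-05). Wild-type cells in that medium had 7.27 and 7.51 FPKM, below DMSO (-0.36, not called). This wild-type fall was called after quantile normalization (adjusted p 0.000132) and median-centring (0.000288). H1047R cells had 9.17 and 9.75 FPKM, also below DMSO and not called. The E545K response to conditioned medium differed from the wild-type response by -0.20 (SE 0.10, adjusted p 0.00269), which was not called after quantile normalization (0.173) or median-centring (0.145).

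TIMP2 (chromosome 17, 78852977 to 78925387) separated E545K cells from the others in every condition. In DMSO it stood at 27.76 and 27.62 FPKM in E545K, 10.46 and 10.70 in wild-type and 8.69 and 7.05 in H1047R cells. E545K cells had 2.62-fold the wild-type mean (1.06, SE 0.09, adjusted p 2.9e-08), and H1047R cells had less than wild type (-0.65, SE 0.09, adjusted p 0.00093). In E545K it fell to 17.26 and 17.16 FPKM with palbociclib (-0.74, SE 0.09, adjusted p 1.78e-05) and to 17.57 and 17.71 in conditioned medium (-0.67, SE 0.09, adjusted p 2.16e-05). These levels were still above every wild-type and H1047R library of the first table, the highest of which had 11.88 FPKM. Wild-type TIMP2 was at 11.58 and 11.88 FPKM with palbociclib (0.00, adjusted p 0.236) and fell to 7.93 and 8.62 in conditioned medium (-0.61, SE 0.09, adjusted p 0.00367). H1047R TIMP2 was at 8.51 and 7.97 FPKM with palbociclib and 6.16 and 6.63 in conditioned medium, and neither change was called (adjusted p 0.573 and 0.0579). The palbociclib response of E545K was lower than that of wild type by a difference of -0.75 (SE 0.12, adjusted p 0.000351).

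TIMP1 (chromosome X, 47582436 to 47586789) stood at 66.67 and 67.41 FPKM in wild-type, 91.15 and 111.98 in E545K and 79.11 and 61.14 in H1047R cells in DMSO. With palbociclib it rose to 93.09 and 91.81 FPKM in wild type (0.32, SE 0.12, adjusted p 0.0109) and to 100.22 and 129.57 in H1047R (0.73, SE 0.12, adjusted p 0.000569). E545K cells, which had the most TIMP1 in DMSO, had 112.06 and 118.72 FPKM (0.11, adjusted p 0.217). The wild-type call was lost when any of its 4 libraries was left out (adjusted p 0.0502 to 0.061), and after median-centring (0.156). The H1047R call was lost with only the groups compared (0.0899). In conditioned medium TIMP1 was at 78.61 and 83.09 FPKM in wild-type, 86.66 and 89.78 in E545K and 80.30 and 77.42 in H1047R cells, with no call (adjusted p 0.0679, 0.197 and 0.374).

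The urokinase gene PLAU and its receptor gene PLAUR both rose with palbociclib in H1047R cells and both fell in E545K cells. PLAUR (chromosome 19, 43646095 to 43670169) stood at 51.37 and 52.85 FPKM in wild-type, 49.23 and 50.22 in E545K and 31.34 and 23.35 in H1047R cells in DMSO. With palbociclib it stood at 56.25 and 54.85 FPKM in wild-type, 33.18 and 33.49 in E545K and 61.10 and 67.64 in H1047R cells. H1047R cells thus went from the lowest to the highest of the genotypes. The mean rose 2.35-fold in H1047R (1.25, SE 0.12, adjusted p 2.7e-06) and fell in E545K (-0.64, SE 0.12, adjusted p 0.000982). In wild type the relative log2 change was -0.05 (adjusted p 0.588). Both mutant responses differed from the wild-type response, by 1.29 in H1047R (SE 0.17, adjusted p 0.000723) and -0.61 in E545K (SE 0.17, adjusted p 0.00988).

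PLAU (chromosome 10, 73908832 to 73917494) stood at 5.59 and 5.34 FPKM in wild-type, 6.18 and 6.19 in E545K and 4.87 and 4.34 in H1047R cells in DMSO. With palbociclib it stood at 7.36 and 6.67 FPKM in wild-type, 4.96 and 4.22 in E545K and 10.07 and 11.17 in H1047R cells. The H1047R libraries were again the highest. PLAU rose 2.31-fold in H1047R (1.08, SE 0.11, adjusted p 9.1e-06) and fell in E545K (-0.45, SE 0.11, adjusted p 0.0149), the latter call being lost without either DMSO library (0.0583 and 0.0605) or palbociclib replicate 2 (0.135). The wild-type rise (0.17, adjusted p 0.0498) lost its call in 9 of 11 alternatives. The difference of response against wild type was 0.91 in H1047R (SE 0.16, adjusted p 0.00731) and -0.63 in E545K (SE 0.16, adjusted p 0.00733). The H1047R call was lost with only the groups compared (0.0503).

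Conditioned medium lowered PLAUR in all 3 genotypes, in the opposite direction to palbociclib in H1047R. It stood at 18.17 and 22.63 FPKM in wild-type, 21.03 and 19.51 in E545K and 17.40 and 15.55 in H1047R cells, all below every DMSO library. The mean was 2.55-fold lower in wild type (-1.61, SE 0.12, adjusted p 1.36e-07), 2.45-fold lower in E545K (-1.30, SE 0.12, adjusted p 4.89e-07) and 1.66-fold lower in H1047R (-0.69, SE 0.12, adjusted p 0.00175). The H1047R fall was smaller than the wild-type fall by 0.91 (SE 0.17, adjusted p 0.00531). PLAU fell with it in wild type, to 3.29 and 4.25 FPKM (-0.74, SE 0.11, adjusted p 0.00289), and in E545K, to 3.59 and 2.88 (-0.82, SE 0.11, adjusted p 4.74e-05). The wild-type PLAU call was lost without conditioned medium replicate 1 (0.0554). H1047R cells had 4.06 and 4.06 FPKM of PLAU (-0.16, adjusted p 0.439).

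Across the 9 group means of the first table, PLAU and PLAUR had the highest correlation of the 36 gene pairs (Pearson r 0.88), followed by TIMP2 and PLAT (0.81). MMP7 and MMP1 correlated at 0.46. These values describe 9 points that share controls, lines and scaling.

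**Figure D2:**
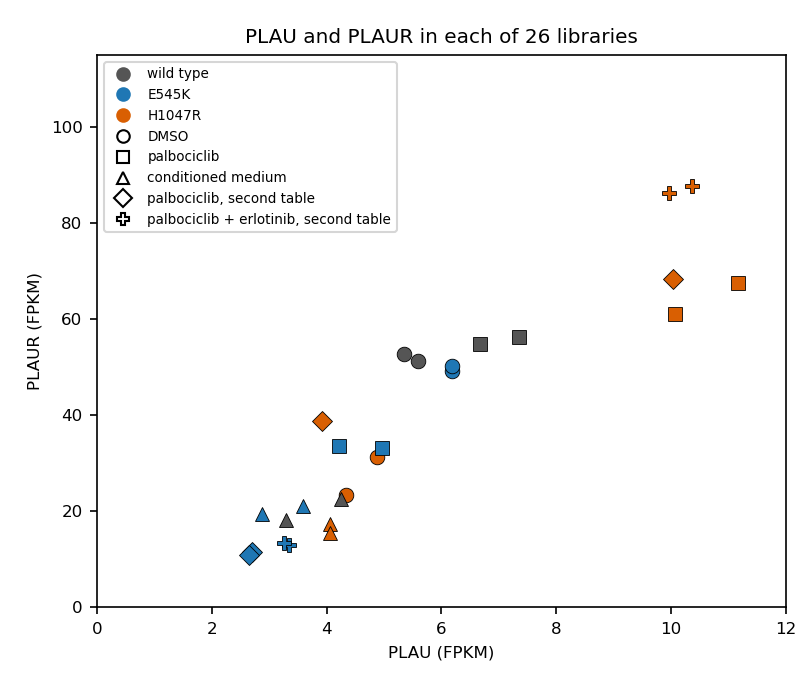
PLAU (horizontal) against PLAUR (vertical) in FPKM on linear axes for the 26 libraries; colour gives the genotype and the marker the treatment. The conditioned medium libraries of all genotypes lie low on both axes, and the H1047R palbociclib libraries of the first table lie at 10.07 and 11.17 FPKM of PLAU.

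The same 4 motifs were searched in the 250 bases before the PLAUR start (minus strand, chr19:43670170-43670419) and before the 2 PLAU starts of the RefSeq table (plus strand, chr10:73910360-73910609 and chr10:73910882-73911131), in GRCh38.p14. Both PLAU stretches lie inside the gene span given above, which begins farther upstream. The letters are not printed, since all 250 bases of each lie in untranslated exons of the GENCODE annotation, of PLAUR itself for the PLAUR stretch and of C10orf55, on the opposite strand, for both PLAU stretches. PLAUR held 1 AP-1 match, 186 to 180 bases before the start, and 1 ETS match on the other strand, 15 to 10 bases before it. The upstream PLAU stretch held 2 TCF matches and the downstream one 1 ETS match. Of the 6 genes searched, TIMP1 held 1 ETS match, and in MMP14 and MMP15 none of the 4 motifs was found in this window.

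PLAT (chromosome 8, 42174718 to 42207565) stood at 6.16 and 6.34 FPKM in E545K, 2.88 and 2.71 in wild-type and 1.31 and 1.63 in H1047R cells in DMSO. E545K cells had 2.24-fold the wild-type mean (0.68, SE 0.13, adjusted p 3.17e-05), and H1047R cells had less than wild type (-0.88, SE 0.13, adjusted p 0.000745), an order that TIMP2 shared. In E545K, PLAT fell to 2.44 and 2.63 FPKM with palbociclib (-1.12, SE 0.13, adjusted p 1.49e-05) and to 2.98 and 3.07 in conditioned medium (-0.90, SE 0.13, adjusted p 7.08e-05). Both falls brought E545K close to the wild-type libraries. With palbociclib PLAT was at 2.98 and 2.52 FPKM in wild-type and 1.30 and 1.49 in H1047R cells, overlapping DMSO in both (adjusted p 0.927 and 0.821). The differences of response of E545K against wild type were -0.97 for palbociclib (SE 0.19, adjusted p 0.00136) and -0.66 for conditioned medium (SE 0.19, adjusted p 0.00131).

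**Figure D3:**
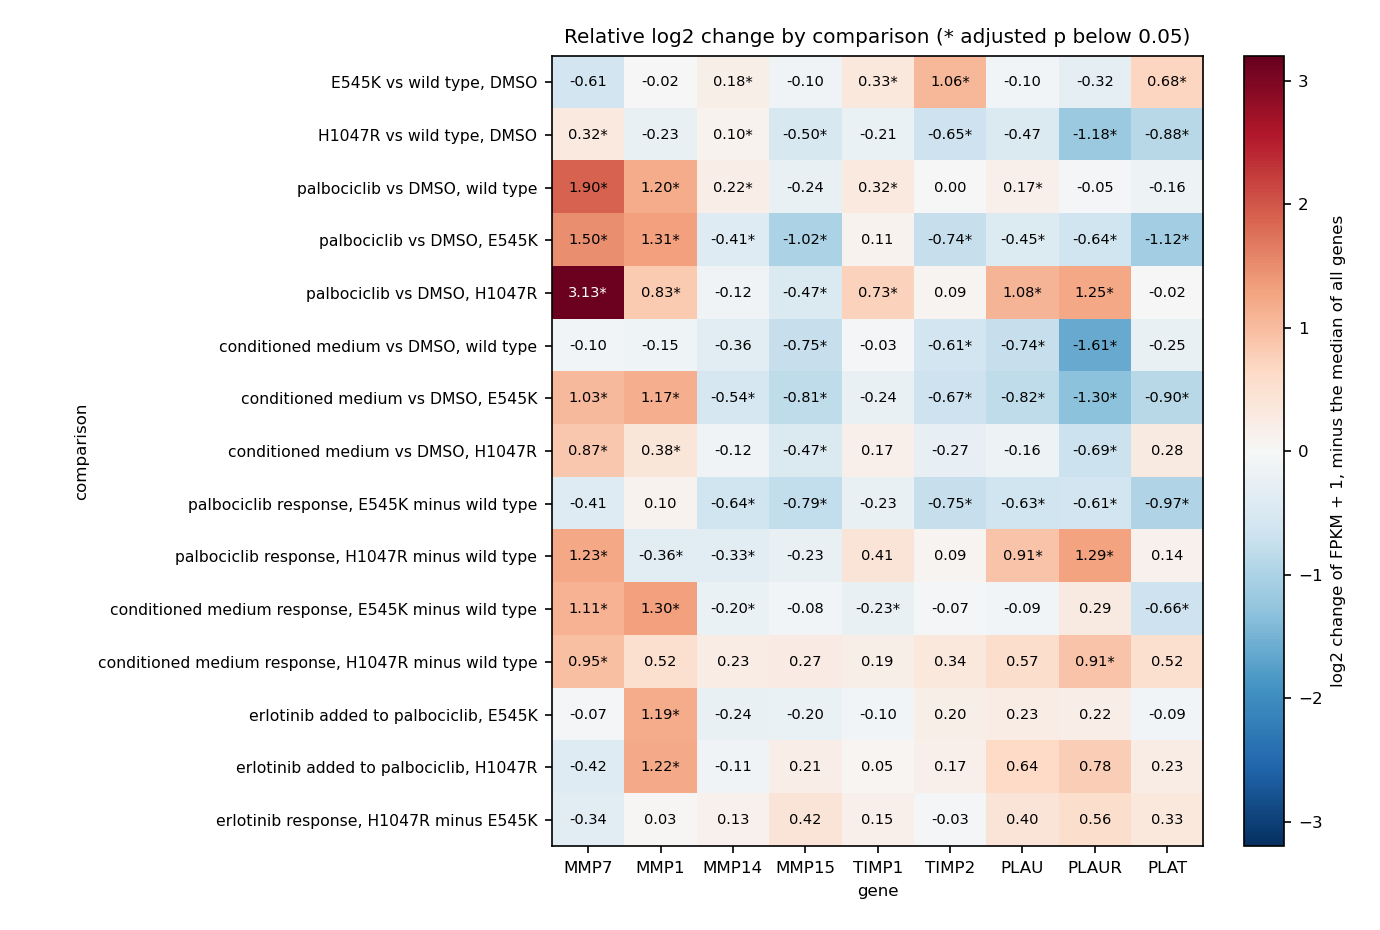
Relative log2 change (colour and printed value, red higher and blue lower) of the 9 genes (columns) in the 15 comparisons (rows); an asterisk marks an adjusted p below 0.05. MMP7 and MMP1 are higher with palbociclib in all 3 genotypes, and PLAUR is lower with conditioned medium in all 3.

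Counted over the 9 genes, conditioned medium gave 0 higher and 4 lower in wild type (70.5% of all genes called, 51.9% higher and 18.6% lower), 2 and 6 in E545K (57.3%, 32.4% and 24.9%) and 2 and 2 in H1047R (14.6%, 8.65% and 5.97%). After quantile normalization wild type had 1 higher and 6 lower. In DMSO, 4 genes were higher and 0 lower in E545K than in wild type (58.8% of all genes called, 48.4% higher and 10.4% lower), namely TIMP2, PLAT, TIMP1 and MMP14, a share near that of all genes. After median-centring the split was 2 higher and 2 lower, and after quantile normalization 3 and 1. H1047R cells had 2 higher, MMP7 and MMP14, and 4 lower (67.4%, 49.9% higher and 17.5% lower), and both higher calls were lost after quantile normalization and median-centring, which gave 0 higher and 5 lower and 0 and 6. PLAUR was 1.91-fold lower in H1047R than in wild type (-1.18, SE 0.12, adjusted p 6.76e-06).

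Differences of response against wild type were called for palbociclib in 6 genes of E545K, all lower (25.7% of all genes called, 10.9% higher and 14.7% lower), and in 3 higher and 2 lower genes of H1047R (22.6%, 5.16% and 17.4%). For conditioned medium they were called in 2 higher and 3 lower genes of E545K (47.1%, 10.0% and 37.1%) and 2 higher genes of H1047R (50.9%, 10.4% and 40.5%). After median-centring these counts became 3 higher and 0 lower for palbociclib in H1047R, 2 and 1 for conditioned medium in E545K, and 7 and 0 in H1047R.

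MMP1 was higher in both mutant lines when erlotinib was added to palbociclib. The time in palbociclib alone is not given for these libraries, so erlotinib and a difference in exposure time cannot be told apart. With palbociclib alone MMP1 stood at 1.45 and 1.84 FPKM in E545K and 3.07 and 1.00 in H1047R cells, and with erlotinib at 5.17 and 4.83 and 5.14 and 5.87. The libraries did not overlap. The mean rose 3.04-fold in E545K (1.19, SE 0.27, adjusted p 0.0221) and 2.71-fold in H1047R (1.22, SE 0.27, adjusted p 0.0321), and the responses were not called different (0.03, SE 0.38, adjusted p 0.998). Of the 9 genes MMP1 alone was called, in both lines (16.2% of all genes called in E545K, 7.10% higher and 9.11% lower, and 9.36% in H1047R, 3.01% and 6.35%). The E545K call was lost without any 1 of its 4 libraries (adjusted p 0.0926 to 0.137), and the H1047R call without either library with erlotinib (0.12 and 0.2).

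The 2 H1047R libraries with palbociclib alone in the second table stood apart from each other. They had 10.03 and 3.91 FPKM of PLAU, 68.40 and 38.76 of PLAUR and 89.81 and 64.86 of TIMP1. With erlotinib PLAUR was at 86.20 and 87.76 FPKM and PLAU at 9.97 and 10.36 in H1047R cells (0.78, adjusted p 0.0568, and 0.64, adjusted p 0.224). Both PLAUR values lay above both with palbociclib alone. Without palbociclib replicate 1 the PLAUR and PLAU changes were 1.18 and 1.22, and without replicate 2 they were 0.37 and 0.05. Each of these fits leaves 1 library in that group, with no spread of its own, so only the sizes are given. The PLAU difference thus rested on replicate 2. E545K cells had 11.44 and 10.90 FPKM of PLAUR without and 12.94 and 13.37 with erlotinib (0.22, adjusted p 0.517). None of the 9 differences of erlotinib response between the lines was called by limma (2.17% of all genes called, 0.899% higher and 1.27% lower), and 1 had an unadjusted p below 0.05.

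The palbociclib groups of the 2 tables differed in level for the same genotype label. MMP7 in E545K was at 3.18 and 3.12 FPKM in the first table and 0.21 and 0.57 in the second, and PLAUR at 33.18 and 33.49 and 11.44 and 10.90. In H1047R, MMP7 was at 18.78 and 25.20 and 13.78 and 9.19 FPKM. The second table has no DMSO group, and levels across the tables, which were deposited apart, were not tested.

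The ratio of inhibitor to secreted protease RNA, (TIMP1 + TIMP2) over (MMP7 + MMP1), was 101 and 79.7 in wild-type, 156 and 245 in E545K and 46.5 and 41.3 in H1047R cells in DMSO. With palbociclib it was 12.3 and 13.7 in wild-type, 23.1 and 25.1 in E545K and 5.56 and 5.23 in H1047R cells. It was lower with palbociclib than in DMSO in each genotype without overlap, and lowest in H1047R. In conditioned medium it was 58.5 and 89.0 in wild-type, 28.4 and 26.1 in E545K and 15.3 and 25.9 in H1047R cells, and the wild-type libraries overlapped DMSO. In the second table it was 72.3 and 46.4 in E545K with palbociclib and 20.0 and 22.0 with erlotinib added, against 5.80 and 7.11 and 6.53 and 6.22 in H1047R. With MMP14 and MMP15 added to the proteases, the mean ratio was instead higher with palbociclib than in DMSO in each genotype. That ratio was 2.276 against 2.031 in wild-type, 4.316 against 2.91 in E545K and 2.485 against 2.101 in H1047R cells. The direction thus depends on which proteases are counted. Both ratios are descriptions of RNA and were not tested.

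**Figure D4:**
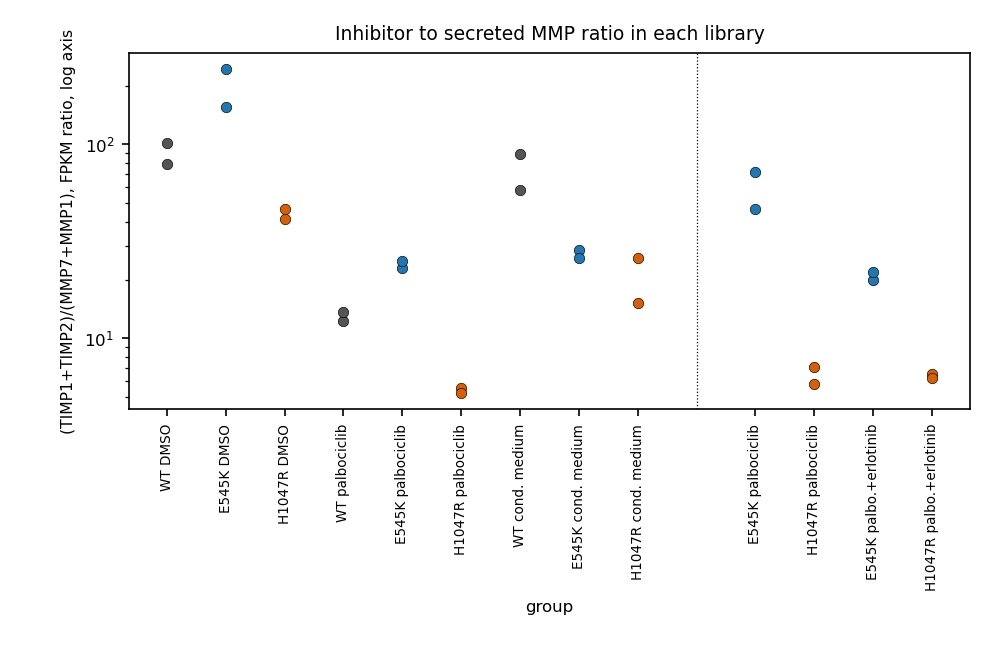
Ratio of (TIMP1 + TIMP2) to (MMP7 + MMP1) FPKM in each of the 26 libraries on a log axis; grey is wild type, blue E545K and orange H1047R, with the second table right of the dotted line. The ratio is 156 and 245 in E545K cells in DMSO and 5.56 and 5.23 in H1047R cells with palbociclib.

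Other genes of the same pathways were followed in 7 lists, chosen with earlier results of these data known. Of all genes tested, the shares called higher and lower with palbociclib, against which each list is to be read, were 27.2% and 6.77% in wild type, 32.9% and 19.3% in E545K, and 19.5% and 19.8% in H1047R. Of 13 other MMP genes 5 were tested in the first table, and palbociclib gave 4 higher and 0 lower in wild type, 3 higher and 0 lower in E545K and 0 higher and 0 lower in H1047R. The list median of the relative log2 change was 0.53, 0.27 and 0.07, where 0 is the median of all genes. MMP19 rose in wild type (mean 1.80 against 0.71 FPKM, 0.57 on the relative log2 scale, SE 0.16, adjusted p 0.00398). It also rose in E545K (mean 2.69 against 1.10 FPKM, 0.71 on that scale, adjusted p 0.000896). Of 6 tested ADAM and ADAMTS genes, 3 higher and 0 lower, 1 higher and 2 lower and 2 higher and 2 lower were called in the same order, and ADAM15, a membrane-anchored sheddase family member, rose in H1047R (mean 53.0 against 35.1 FPKM, 0.61 on the relative log2 scale, SE 0.10, adjusted p 0.000587).

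Of 10 tested genes that inhibit, activate or bind metalloproteinases, palbociclib gave 6 higher and 1 lower in wild type, 2 higher and 4 lower in E545K and 4 higher and 2 lower in H1047R. PCSK7, a proprotein convertase, rose in H1047R (mean 14.5 against 7.58 FPKM, 0.88 on the relative log2 scale, SE 0.09, adjusted p 9.71e-06). It also rose in wild type (0.67, adjusted p 2.19e-05) and in E545K (0.51, adjusted p 9.28e-05). TIMP3, an inhibitor that binds the matrix, was lower in both mutant lines than in wild type in DMSO, in E545K (mean 2.98 against 8.10 FPKM, -1.44 on the relative log2 scale, SE 0.10, adjusted p 2.84e-07) and likewise in H1047R (mean 1.72 against 8.10 FPKM, -2.01 on the relative log2 scale, SE 0.10, adjusted p 2.79e-09). The third TIMP gene thus had another order over the genotypes than TIMP2.

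Of 7 tested genes of the plasminogen system, palbociclib gave 5 higher and 0 lower in wild type, 6 higher and 1 lower in E545K and 6 higher and 0 lower in H1047R. ANXA2 and S100A10, which form a plasminogen-binding complex at the cell surface, rose in H1047R, ANXA2 by a relative log2 change of 0.88 and S100A10 by 0.82. S100A10 also rose in wild type, by 0.56 (adjusted p 0.000482). In conditioned medium the same list gave 5 higher and 0 lower, 3 higher and 2 lower and 1 higher and 1 lower in wild type, E545K and H1047R. Shares of all genes called higher and lower in that medium were 51.9% and 18.6% in wild type, 32.4% and 24.9% in E545K, and 8.65% and 5.97% in H1047R.

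Of 10 tested epithelial serine proteases and inhibitors, palbociclib gave 7 higher and 1 lower in wild type, 5 higher and 4 lower in E545K and 7 higher and 0 lower in H1047R. PI3 (elafin), a secreted elastase inhibitor, rose in wild type (mean 258 against 65.3 FPKM, 1.82 on the relative log2 scale, SE 0.10, adjusted p 1.61e-08), in E545K (mean 556 against 152 FPKM, 1.79 on the relative log2 scale, SE 0.10, adjusted p 3.68e-09) and, with the highest mean, in H1047R (mean 677 against 112 FPKM, 2.60 on the relative log2 scale, SE 0.10, adjusted p 2.24e-10). Of 9 tested cathepsin and cystatin genes the counts were 5 higher and 1 lower, 4 higher and 2 lower and 6 higher and 0 lower.

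Of 12 AP-1 and ETS factor genes, palbociclib gave 2 higher and 5 lower in wild type, 2 higher and 7 lower in E545K and 4 higher and 2 lower in H1047R (shares of all genes 27.2% and 6.77% in wild type, 32.9% and 19.3% in E545K, and 19.5% and 19.8% in H1047R). ETS1 rose in H1047R (mean 5.13 against 1.69 FPKM, 1.21 on the relative log2 scale, SE 0.11, adjusted p 1.99e-06), as did JUNB (mean 96.8 against 52.4 FPKM, 0.92 on the relative log2 scale, SE 0.14, adjusted p 0.000257). JUND fell in E545K (mean 55.2 against 127 FPKM, -1.27 on the relative log2 scale, SE 0.13, adjusted p 2.66e-06), as did ETV4 (mean 28.4 against 63.9 FPKM, -1.23 on the relative log2 scale, SE 0.10, adjusted p 3.67e-07). Both also fell in wild type, JUND with a relative log2 change of -1.31 (adjusted p 1.28e-05) and ETV4 with -0.67 (adjusted p 0.000935). Conditioned medium gave 2 higher and 8 lower in wild type, 2 higher and 7 lower in E545K and 0 higher and 6 lower in H1047R (shares of all genes 51.9% and 18.6% in wild type, 32.4% and 24.9% in E545K, and 8.65% and 5.97% in H1047R).

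The 3 tested genes most like each of the 9, by Pearson r over the 9 group means of the first table, were ranked among 12607 genes. For MMP7 they were CFB (0.97), UBD (0.96) and HLA-DQA1 (0.96). CFB encodes complement factor B and HLA-DQA1 a class II antigen-presenting chain. For PLAUR they were BCL2L1 (0.98), CSRNP1 (0.97) and CDKN2B (0.97), for PLAU RAB24 (0.96), SYNGR2 (0.93) and CFLAR (0.92), and for TIMP1 COL17A1 (0.99), TRAFD1 (0.98) and CCND3 (0.98). COL17A1 encodes a hemidesmosomal collagen and CDKN2B a CDK inhibitor. For TIMP2 they were CRYBG2 (0.96), TEAD2 (0.96) and KRT80 (0.95), and for MMP15 MKRN2 (0.99), PLEKHG6 (0.98) and DRAM2 (0.98). Those of MMP1 were PABPC1L (0.95), BTBD9 (0.95) and VEZT (0.94), those of PLAT COLGALT1 (0.94), AMPD2 (0.94) and HES6 (0.93), and those of MMP14 PRPSAP1 (0.91), POLR2J2 (0.90) and FAM219A (0.89). With 9 points and this many genes, such values describe likeness alone.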

How the data were processed

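RNA sequencing of poly(A) RNA was analysed for 26 libraries of LoVo cells in 13 groups of 2. The authors deposited FPKM values per gene in 2 tables, per the file headers, with no counts, so depth and counting precision are unknown. Per the submitters' processing notes, the tools were RSEM 1.3.1, HISAT2 2.1.0, DESeq2 1.4.5 and Bowtie2 2.3.4.3, with the build GRCh38 and no roles stated. Groups were taken from the labels.

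The tables were fitted apart with limma 3.58.1 in R 4.3.3, on log2(FPKM + 1), with 1 coefficient per group and an intensity trend. Genes with at least 1 FPKM in at least 2 libraries were tested, 12607 and 12463. P-values of 15 comparisons, for both directions, were adjusted over all tested genes. Residual degrees of freedom were 9 and 4. Tables and plots used Python 3.11.15, pandas 2.3.3 and matplotlib 3.10.9. Coordinates and promoter stretches are RefSeq's, in GRCh38.p14, and stretches of 6 of the 9 genes were searched. The other 3, MMP1, TIMP2 and PLAT, had no entry or were left out. Entries on chromosome 8, where PLAT lies, were left out.

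The members and gene lists were chosen with earlier results of these data known. The text names the 9 genes, at most 2 further called genes per list and comparison with the largest relative change, and the 3 genes most like each. Alternatives were a pseudocount of 0.1, no filter, quantile normalization, median-centring, the TPM scale, only the groups compared, a replicate block, and leaving out each library. The fit was tested on simulated data.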

Additional observations from a re-analysis of the deposited data

Results flagged for a closer look

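Differences of response were tested in 45 gene results, of which 18 were called, all of them between a mutant line and wild type. The 45 include the 9 erlotinib differences of H1047R against E545K, of which 0 were called. Shares of all genes called were 25.7% in E545K and 22.6% in H1047R for palbociclib, and 47.1% and 50.9% for conditioned medium. For the erlotinib difference the share was 2.17%. Values are differences of log2 change, mutant minus wild type, less the median of that difference over all tested genes. For palbociclib in E545K they were -0.64 for MMP14, -0.79 for MMP15, -0.75 for TIMP2, -0.63 for PLAU, -0.61 for PLAUR and -0.97 for PLAT. For palbociclib in H1047R they were 1.23 for MMP7, -0.36 for MMP1, -0.33 for MMP14, 0.91 for PLAU and 1.29 for PLAUR. For conditioned medium in E545K they were 1.11 for MMP7, 1.30 for MMP1, -0.20 for MMP14, -0.23 for TIMP1 and -0.66 for PLAT. For conditioned medium in H1047R they were 0.95 for MMP7 and 0.91 for PLAUR. The TIMP1 difference lost its call in 9 of 15 alternatives, the MMP7 difference in conditioned medium in H1047R in 10, the MMP1 difference with palbociclib in 11, and the MMP14 differences in 3 with palbociclib in H1047R and 2 in conditioned medium. The H1047R palbociclib difference lost its call in 2 for MMP7 and 1 for PLAU, and the E545K conditioned medium difference of MMP7 in 1.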

How the results depend on the processing

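Of 135 gene results 65 were called, and 40 of these were called under every alternative run. MMP14 in H1047R against wild type in DMSO reversed after quantile normalization (-0.0179), as did the uncalled PLAUR change with palbociclib in wild type, to 0.0551. Of 70 results not called, 36 were called under at least 1 alternative and 23 changed sign under at least 1. Numbers of the 9 genes called moved as follows. Palbociclib in wild type gave 3 after quantile normalization and 2 after median-centring, and 3 to 3 with 1 library left out. Conditioned medium gave 7 in wild type after quantile normalization, and in H1047R 1 with only the groups compared and 1 to 4 with 1 library left out. The palbociclib difference of H1047R against wild type gave 3 after quantile normalization, 3 after median-centring and 2 with only the groups compared. The conditioned medium difference gave, in E545K, 3 after median-centring and 3 to 5 with 1 library left out. In H1047R it gave 1 with a pseudocount of 0.1, no filter, the TPM scale or only the groups compared, 6 after quantile normalization, 7 after median-centring and 1 to 3 with 1 library left out. Erlotinib in E545K gave 0 with no filter, 5 with only the groups compared and 0 to 0 with 1 library left out. In H1047R it gave 0 with no filter and with only the groups compared, 2 after quantile normalization, median-centring or on the TPM scale, and 0 to 5 with 1 library left out, and the erlotinib difference gave 0 to 4. For erlotinib in H1047R and for the erlotinib difference, the highest count came from leaving out H1047R palbociclib replicate 1 of the second table. That left 1 library in the group, with no spread of its own. The cause of these changes was not tested. On the TPM scale palbociclib in H1047R gave 5 higher and 2 lower.

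Samples were not paired by replicate number in the main fit. Deviations of same-numbered libraries correlated at -0.56 to 0.55 (median 0.07) in the first table and -0.10 to 0.03 in the second. Of 36 pairs of groups in the first table, 15 lay above 0.1 and 6 below -0.1. Some groups thus shared deviations between replicates, and the source of these was not tested. A replicate block lost 2 calls and gained 1, and changed the count in 3 comparisons, palbociclib in wild type (4) among them. With 2 libraries per group and unknown depth, low levels such as MMP1 in DMSO are imprecise.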
